A study of Rattus norvegicus with 36 samples.

Results

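The p53 and DNA damage targets Cdkn1a, Mdm2, Ccng1, Bax, Gdf15, Gadd45a, Phlda3, Sesn2, Trp53inp1 and Eda2r, 10 genes in all, were followed in the lungs of rats instilled with crystalline silica. They were taken by gene name alone, as every non-control probe of the array that carries 1 of the 10 names. The array listed 9 of these names as written and Trp53inp1 under its RefSeq symbol Tp53inp1, which is used from here on. Together they had 17 probes, 16 of which passed the filter on dim probes, and all 10 were among the 23940 genes tested of 25597 gene names on the array.

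The rats were female Sprague Dawley rats, 13 weeks old at instillation. Under injected anesthesia with Domitor and Ketamine, reversed with Antisedan, they received intratracheally either 10 mg/rat of DQ-12, a crystalline silica, in sterile saline or the saline vehicle alone. The DQ-12 had been ground with tungsten carbide tools, which by the study's account lowered its crystallinity and left some tungsten and cobalt in it. Total RNA of the accessory lung lobe was hybridized on 1-color arrays 1, 30 or 180 days later (D1, D30, D180), with 6 vehicle and 6 DQ-12 rats at each time and 1 array per rat. A single dose was tested, every comparison had its own vehicle group of the same time, and in a whole lobe fewer cells of a type and less RNA per cell cannot be told apart.

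The tumor suppressor p53 is a transcription factor that is stabilized when DNA breaks or other stress is sensed by the kinases ATM and ATR. It then raises genes that halt the cell cycle, favor apoptosis or repair, and, through Mdm2, its own degradation. In silica-exposed lung, oxidants made by phagocytes and by the particle surface are known sources of DNA lesions, and several of these genes also answer to other signals, such as ATF4 for Gdf15 and Sesn2.

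Levels are given as normalized log2 signal, so that a difference of 1 is a 2-fold change, and were compared between rats for 1 probe at a time. A gene passed the test when the Benjamini-Hochberg adjusted p of limma over all 23940 genes was under 0.05 in that comparison, and was a differentially expressed gene (DEG) when it also changed at least 2-fold. Beside it, a 2-sided exact permutation test over all splits of the 12 rats into 6 and 6 was run for each gene and time, 30 tests in all, and its smallest possible p is 0.00216.

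The probes of 3 targets that passed the test at some time and are measured within their coding sequence are shown, so that the measured stretch of the transcript can be seen, 5′ to 3′ on the sense strand. The Bax probe lies at chr1:95933023-95933082 (minus strand) in rn4, the build named in the file headers, and its capitals mark the stop codon that ends the coding sequence. The Gdf15 probe lies at chr16:19313390-19313449 (plus strand) and the Phlda3 probe at chr13:48790295-48790354 (plus strand), both without capitals.
Bax: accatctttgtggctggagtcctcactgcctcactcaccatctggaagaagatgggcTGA
Gdf15: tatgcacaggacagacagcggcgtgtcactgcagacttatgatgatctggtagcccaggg
Phlda3: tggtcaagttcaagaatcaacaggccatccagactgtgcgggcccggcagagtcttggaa

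The promoters were searched because the targets are grouped by a shared regulator. RefSeq promoter windows of 300 bases (GRCr8) were matched for 8 of the 10 genes, with 2 windows for Gdf15, and not for Bax and Tp53inp1. The p53 half-site consensus of 10 letters, which reads alike on both strands, was found in 3 of the 9 windows (Ccng1, Cdkn1a and Gadd45a) and in 7.98% of all 33469 windows. Only single half-sites within the windows were searched, so sites elsewhere in a gene were not looked for. The motif TGATGNAA, searched on both strands and close to the element that ATF4 binds, was in none of the 9 windows of these genes, so that none overlapped a half-site, and in 3.98% of all windows. The 3 matches are printed with 10 bases on each side, in the direction of the gene, with the half-site in capitals. They lie at chr10:25685099-25685108 (minus strand), chr20:7150731-7150740 (plus strand) and chr4:97486838-97486847 (minus strand) in the order shown.
Ccng1: agacctgcccGGGCAAGCCTtggcattgaa
Cdkn1a: tggctttcagGAACATGTCTtgacttgttc
Gadd45a: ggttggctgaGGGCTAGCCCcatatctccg

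The arrays had 61.0% to 80.6% of spots well above background and a median correlation of each array with its own group between 0.964 and 0.985. All 7 lung epithelial markers were detected. Scan dates were not balanced. The 6 DQ-12 arrays of D1 shared their scan date with 1 vehicle array, D30 was scanned on a date with 4 vehicle and 1 DQ-12 arrays and a date with 2 and 5, and D180 had a date with 3 of each and a date with 1 of each beside dates with 1 group only. Values within the dates that hold both groups are therefore given for each target at 1 or more of the times. For the named genes of the other lists, values from a scan date block are given.

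Between 1 and 3 of the 10 p53 targets passed the test at each time after silica, in both directions at D1 and in 1 direction at D30 and at D180. At D1, 3 of the 10 passed the test, against 16.2% of all genes, namely Bax, higher as 7.58% of all genes were, and Mdm2 and Gadd45a, lower as 8.62% were. At D30, 1 passed, against 3.98% of all genes, namely Phlda3, which was lower (2.74% of all genes were higher and 1.24% lower). At D180, 2 passed, against 16.8% of all genes, namely Bax and Gdf15, both higher (7.82% of all genes were higher and 9% lower). The groups of 6 did not overlap for 3, 0 and 0 of the 10 at D1, D30 and D180, and for 11.2%, 2.36% and 7.26% of all genes.

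The median log2 fold change of the 10 was -0.12, -0.08 and 0.27 at the 3 times, against -0.01, -0.02 and -0.03 over all genes. Of the 10, 5, 4 and 8 were fitted above 0, as were 49.1%, 47.3% and 46.2% of all genes. By limma none was a DEG at D1 or D30, where 3.07% and 1.05% of all genes were. Gdf15 was the DEG at D180, where 3.63% of all genes were. The unadjusted limma p was under 0.05 for 4, 1 and 5 of the 10 at the 3 times, and for 29%, 15.8% and 27.9% of all genes.

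**Figure D1:**
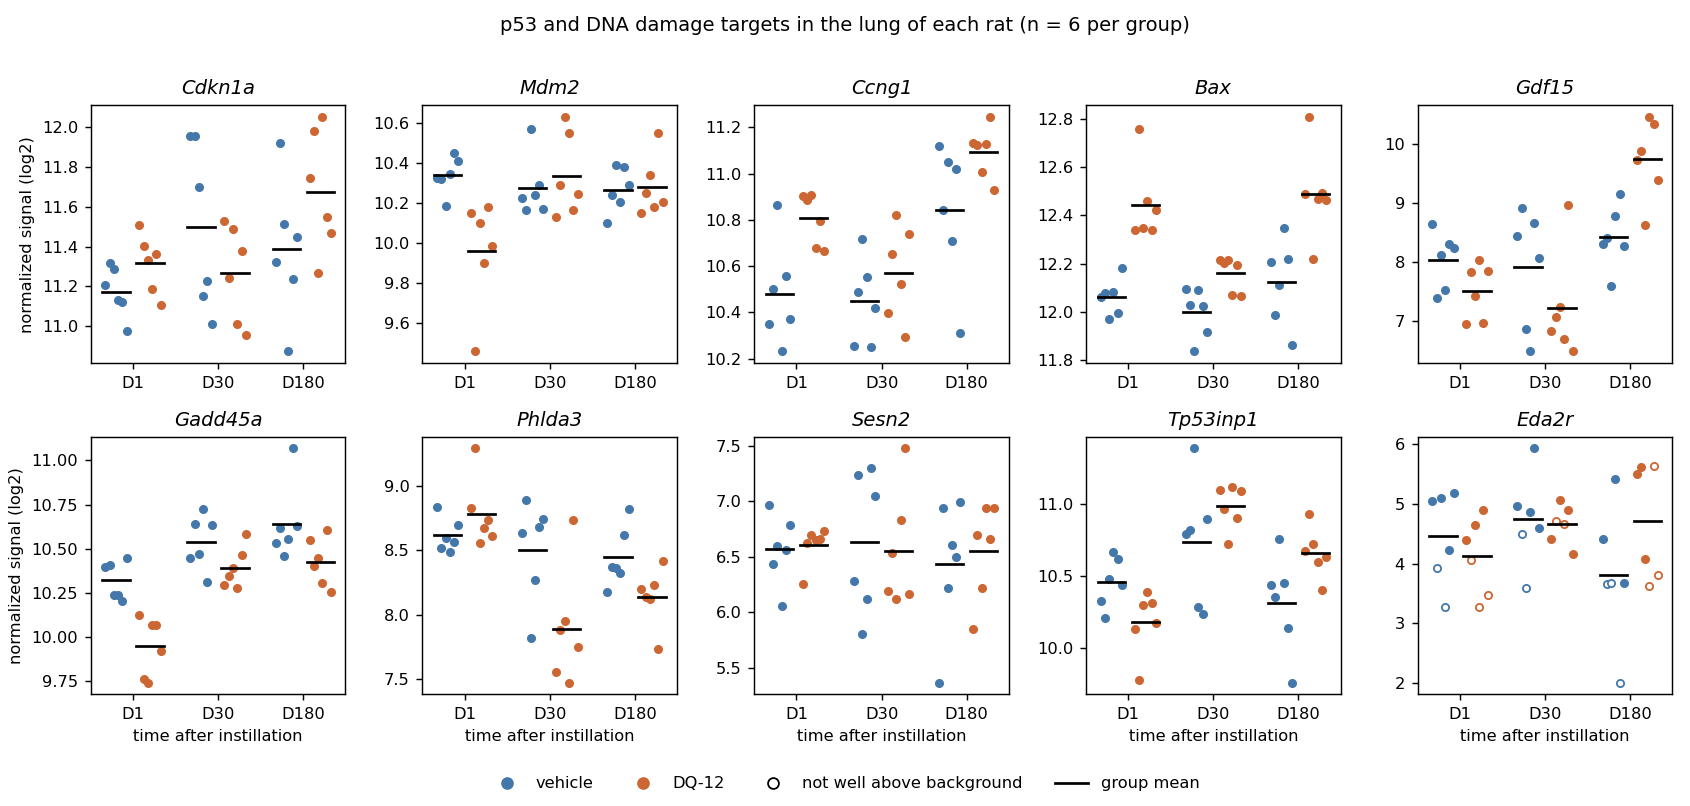
Normalized log2 signal (y axis) of each of the 10 targets in every rat at D1, D30 and D180 (x axis), with vehicle in blue, DQ-12 in orange, bars at the group means (n = 6) and open points where the probe was not well above background. At D1 the 6 DQ-12 rats lie above all vehicle rats for Bax and below all of them for Mdm2 and Gadd45a, and at D180 5 of 6 lie above all vehicle rats for Gdf15.

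**Figure D2:**
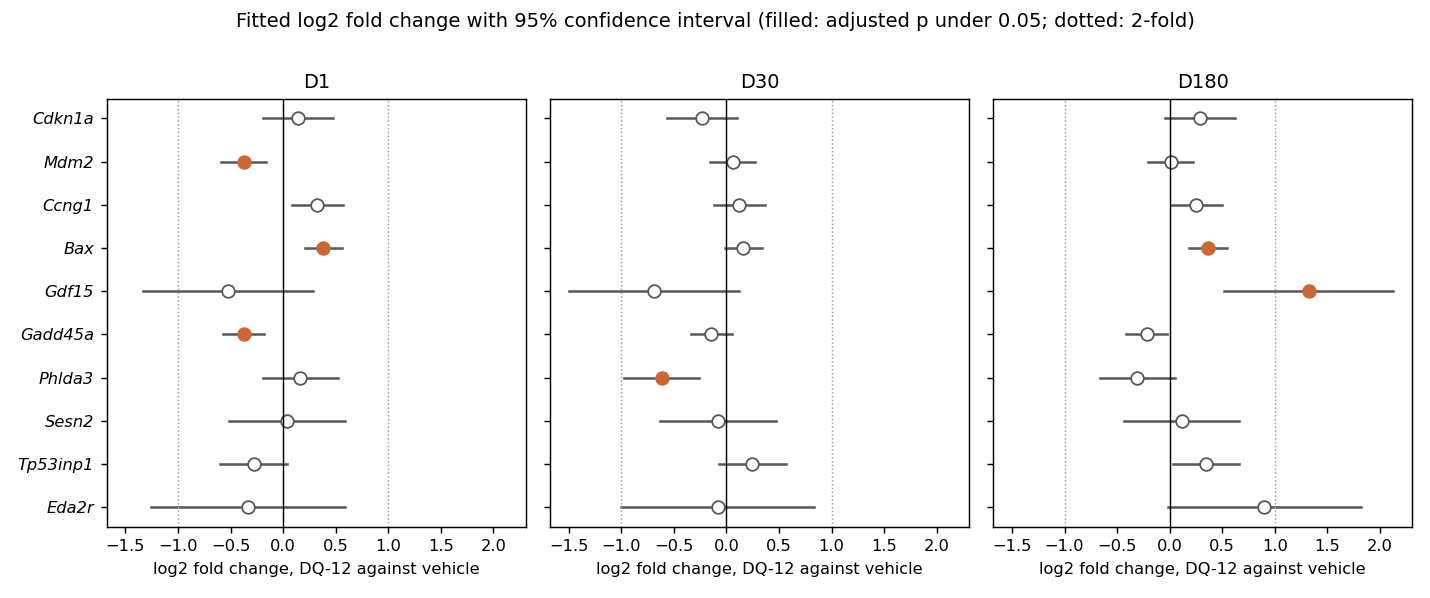
Fitted log2 fold change of DQ-12 against vehicle (x axis) for the 10 targets (y axis) at each time, with 95% confidence intervals and filled points where the adjusted p was under 0.05. Bax is right of 0 at D1 and D180, Mdm2 and Gadd45a left of 0 at D1, Phlda3 left of 0 at D30, and Gdf15 at D180 is the only filled point beyond 2-fold.

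Bax, which permeabilizes the outer mitochondrial membrane during apoptosis, was the only target that passed at both D1 and D180. At D1 its signal ran from 11.97 through a median of 12.07 to 12.18 in vehicle rats and from 12.34 through 12.39 to 12.76 in DQ-12 rats. The groups did not overlap, and Bax was 1.30-fold higher (log2 0.38, SE 0.09, limma adjusted p = 0.00227, exact permutation p = 0.00216). At D180 it ran from 11.86 through 12.16 to 12.35 in vehicle rats and from 12.22 through 12.48 to 12.81 in DQ-12 rats. There 5 of 6 DQ-12 rats exceeded every vehicle rat, and Bax was 1.29-fold higher (log2 0.37, SE 0.09, adjusted p = 0.00263, exact permutation p = 0.00433).

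At D30 Bax ran from 11.84 through 12.03 to 12.09 in vehicle rats and from 12.06 through 12.20 to 12.22 in DQ-12 rats. It did not pass the test there, at a log2 fold change of 0.16 (95% confidence interval -0.02 to 0.34, adjusted p = 0.382), although 4 of the 6 DQ-12 rats exceeded the highest vehicle rat. Within every scan date with both groups the DQ-12 mean was the higher, by 0.47 at D1, 0.18 and 0.19 at D30, and 0.28 and 0.51 at D180. With scan date as a block, Bax at D1 stood at 0.47 with an adjusted p of 0.182, in a fit in which 1.12% of all genes passed, and at D180 at 0.34 with 0.0339. With slide as a block, Bax at D180 stood at 0.14 with an adjusted p of 0.898. The second Bax probe gave 0.15 at D1 (adjusted p = 0.554 over all probes) and 0.46 at D180 (adjusted p = 0.0258), so the rise at D1 rests on the brighter probe and the rise at D180 on both.

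Gdf15, a secreted cytokine of the TGF-beta superfamily that stressed cells release, had the widest range of the 10. At D180 vehicle rats ran from 7.59 through 8.37 to 9.16 and DQ-12 rats from 8.64 through 9.81 to 10.46. Only the lowest DQ-12 rat fell within the vehicle range, and Gdf15 was 2.50-fold higher (95% confidence interval 1.43 to 4.37, log2 1.32, SE 0.40, adjusted p = 0.0175, exact permutation p = 0.00649). The difference exceeded the SD of either group (0.53 and 0.67). Within the scan dates with both groups it was 1.19 and 1.93, and 1.38 with scan date as a block (adjusted p = 0.00171). With slide as a block it was 0.95 (adjusted p = 0.318). The call was lost without vehicle rat 3 (1.15, adjusted p = 0.0531) and without DQ-12 rat 4 (1.18, adjusted p = 0.0515).

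At the earlier times Gdf15 was fitted below the vehicle level and did not pass. At D1 vehicle rats ran from 7.39 through 8.19 to 8.64 and DQ-12 rats from 6.95 through 7.63 to 8.04, a log2 fold change of -0.53 (adjusted p = 0.41). At D30 they ran from 6.50 through 8.26 to 8.92 and from 6.49 through 6.95 to 8.98, a log2 fold change of -0.69 (adjusted p = 0.423). Both D30 groups split by scan date. Vehicle rats averaged 8.53 on 1 date and 6.68 on the other, and within the dates the DQ-12 mean was the higher, by 0.45 and 0.19, so the sign of the D30 value turned.

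Mdm2 encodes the ubiquitin ligase that degrades p53 and is itself a p53 target. At D1 it ran from 10.18 through 10.34 to 10.45 in vehicle rats and from 9.46 through 10.04 to 10.18 in DQ-12 rats. The groups did not overlap, although by little, with the lowest vehicle rat, rat 3, at 10.183 and the highest DQ-12 rat at 10.178. That vehicle rat was also the one scanned with the DQ-12 arrays. Mdm2 was 1.30-fold lower (log2 -0.38, SE 0.11, adjusted p = 0.0122, exact permutation p = 0.00216). Without DQ-12 rat 2, the lowest, the fold change was -0.28 and the adjusted p 0.0526. Within the shared scan date it was -0.22, and with that date as a block the adjusted p was 0.757. At D30 vehicle rats ran from 10.17 to 10.57 and DQ-12 rats from 10.13 to 10.63, and at D180 from 10.10 to 10.39 and from 10.15 to 10.55. These groups overlapped, with fitted changes of 0.06 (95% confidence interval -0.16 to 0.27) and 0.01 (-0.20 to 0.22).

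Gadd45a encodes a small protein that binds PCNA and p21 in growth arrest and repair, and at D1 it moved as Mdm2 did. Vehicle rats ran from 10.20 through 10.31 to 10.45 and DQ-12 rats from 9.74 through 9.99 to 10.12. The groups did not overlap, and Gadd45a was 1.30-fold lower (log2 -0.38, SE 0.10, adjusted p = 0.00609, exact permutation p = 0.00216). Within the shared scan date it was -0.29, with an adjusted p of 0.463 when that date was a block. At D30 vehicle rats ran from 10.31 through 10.55 to 10.73 and DQ-12 rats from 10.27 through 10.37 to 10.58, a log2 fold change of -0.15 (adjusted p = 0.512). At D180 they ran from 10.46 through 10.58 to 11.07 and from 10.25 through 10.42 to 10.60. There 4 of 6 DQ-12 rats lay below every vehicle rat, and the change did not pass, at -0.22 (adjusted p = 0.126) and at -0.05 and -0.01 within the scan dates.

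Cdkn1a encodes p21, the inhibitor of cyclin-dependent kinases that carries out the p53 cell cycle arrest, and it did not pass at any time. At D1 it ran from 10.97 through 11.17 to 11.32 in vehicle rats and from 11.10 through 11.35 to 11.51 in DQ-12 rats, a log2 fold change of 0.14 (95% confidence interval -0.19 to 0.48, adjusted p = 0.622). At D30 it ran from 11.01 through 11.46 to 11.95 and from 10.96 through 11.31 to 11.53, with a log2 fold change of -0.23 (adjusted p = 0.561). At D180 it ran from 10.87 through 11.38 to 11.92 and from 11.27 through 11.65 to 12.05, with 0.29 (95% confidence interval -0.04 to 0.62, adjusted p = 0.258). The groups overlapped at each time, with 4 of 6 DQ-12 rats above every vehicle rat at D1. Within the scan dates the change was 0.03 at D1, -0.16 and -0.18 at D30, and 0.43 and -0.37 at D180, so that the direction at D180 differed between dates. The brighter probe is spotted 10 times, with a median SD between spots of the same array of 0.05.

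The second Cdkn1a probe was dim, well above background on 24 of the 36 arrays, and gave another picture. At D1 it ran from 2.86 through 3.41 to 3.98 in vehicle rats, with 1 of 6 well above background, and from 3.71 through 4.40 to 4.93 in DQ-12 rats, with 3 of 6. It was higher by 0.94 (SE 0.29, adjusted p = 0.0307 over all probes, exact permutation p = 0.0108). At D180 vehicle rats ran from 4.39 through 4.87 to 5.66, with 5 of 6 well above background, and DQ-12 rats from 5.42 through 5.72 to 6.02, with 6 of 6. The change there was 0.72 (adjusted p = 0.111), and 0.23 at D30 (adjusted p = 0.863).

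Ccng1, the cyclin G1 gene whose protein recruits a phosphatase to Mdm2, was fitted higher at each time without passing. At D1 it ran from 10.23 through 10.44 to 10.86 in vehicle rats and from 10.67 through 10.84 to 10.91 in DQ-12 rats, a log2 fold change of 0.33 (adjusted p = 0.0565). The highest vehicle rat was rat 3, the one scanned with the DQ-12 arrays. Without it Ccng1 passed, at 0.40 (adjusted p = 0.0166), and against it alone the change was -0.06. At D30 vehicle rats ran from 10.25 through 10.45 to 10.72 and DQ-12 rats from 10.29 through 10.59 to 10.82, a change of 0.12 (adjusted p = 0.72). At D180 they ran from 10.31 through 10.93 to 11.12 and from 10.93 through 11.12 to 11.24, a change of 0.25 (adjusted p = 0.157). The groups overlapped at both times. Within the scan dates Ccng1 changed by -0.06 and -0.01 at D30, and by 0.13 and 0.40 at D180.

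Phlda3 encodes a pleckstrin homology protein that competes with Akt for membrane lipids, and it was the target that fell at D30. Vehicle rats ran from 7.82 through 8.66 to 8.89 and DQ-12 rats from 7.47 through 7.82 to 8.74. Of the DQ-12 rats 3 lay below every vehicle rat and 3 within the vehicle range, and Phlda3 was 1.53-fold lower (log2 -0.61, SE 0.17, adjusted p = 0.0391, exact permutation p = 0.0411). Within the scan dates the difference was smaller, at -0.002 and -0.32, and with scan date as a block -0.21 (adjusted p = 0.66). The call was lost on leaving out vehicle rat 1, 2, 5 or 6 or DQ-12 rat 1, 2, 3, 4 or 6, with values between -0.63 and -0.53 and adjusted p between 0.0552 and 0.122. At D1 vehicle rats ran from 8.49 through 8.58 to 8.84 and DQ-12 rats from 8.56 through 8.70 to 9.29, a log2 fold change of 0.16 (adjusted p = 0.585). At D180 they ran from 8.18 through 8.37 to 8.82 and from 7.73 through 8.17 to 8.42, a log2 fold change of -0.31 (adjusted p = 0.263), and 3 of 6 DQ-12 rats were again below every vehicle rat.

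**Figure D3:**
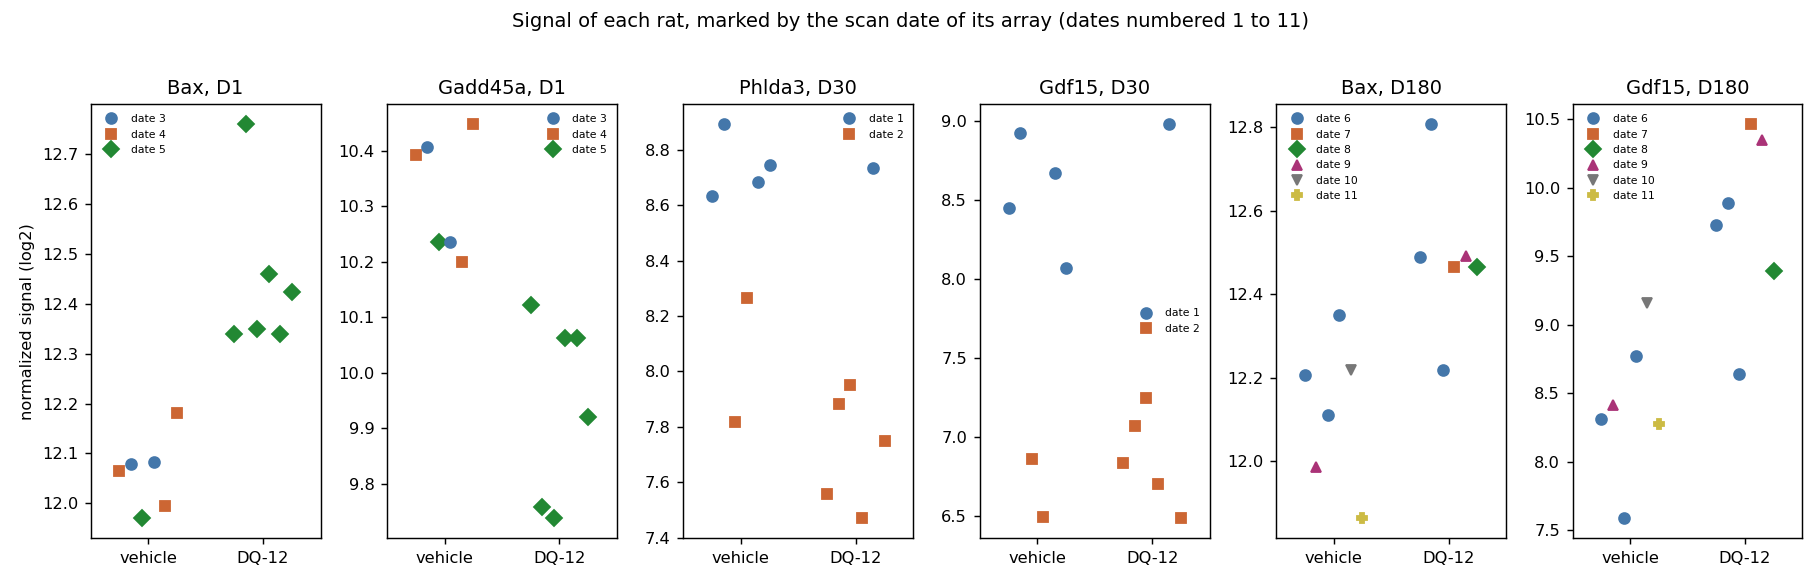
Normalized log2 signal (y axis) of vehicle and DQ-12 rats (x axis) for Bax and Gadd45a at D1, Phlda3 and Gdf15 at D30, and Bax and Gdf15 at D180, each point 1 rat, with symbols and colors for the scan date of its array. Phlda3 and Gdf15 at D30 separate by scan date within both groups, while at D1 all 6 DQ-12 rats lie above the vehicle rat of their own date for Bax and below it for Gadd45a.

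Tp53inp1, a nuclear protein that takes part in p53 phosphorylation and in autophagy, was measured by 4 probes and passed with none of them. On the brightest, vehicle rats ran from 10.21 to 10.67 at D1, 10.24 to 11.39 at D30 and 9.75 to 10.75 at D180, and DQ-12 rats from 9.77 to 10.38, 10.72 to 11.12 and 10.40 to 10.93. The groups overlapped each time, although 3 of 6 DQ-12 rats lay below every vehicle rat at D1. The fitted changes were -0.28 at D1, 0.25 at D30 and 0.34 at D180 (adjusted p = 0.238, 0.479 and 0.138). At D1 the 4 probes ranged from -0.28 to 0.30 and did not share a direction, while at D30 and D180 all 4 were fitted above 0. Within the scan dates the brightest gave -0.30 at D1, 0.22 and 0.17 at D30, and 0.23 and 0.05 at D180.

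Sesn2, a sestrin that restrains mTORC1 under oxidative and nutrient stress, varied more between rats than between groups. Its vehicle rats ran from 6.06 to 6.97 at D1, 5.80 to 7.30 at D30 and 5.37 to 6.998 at D180, and its DQ-12 rats from 6.26 to 6.74, 6.12 to 7.48 and 5.85 to 6.94. The fitted changes were 0.04, -0.08 and 0.11, with confidence intervals that reached -0.51 to 0.59, -0.63 to 0.47 and -0.43 to 0.66. Changes of that size were not resolved. Within the scan dates they were 0.01 at D1, 0.51 and 0.41 at D30, and 0.19 and -0.28 at D180, so the sign turned at D30 and differed between dates at D180.

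Eda2r, the receptor of ectodysplasin A2, was near the detection limit. Of 6 vehicle and 6 DQ-12 rats its brightest probe was well above background in 4 and 3 at D1, in 4 and 4 at D30, and in 3 and 3 at D180. The fitted changes were -0.33, -0.08 and 0.90, none of which passed (adjusted p = 0.683, 0.979 and 0.192). At D180 3 DQ-12 rats lay above every vehicle rat, the highest of which had 5.42, but the highest of the 3, at 5.62, was itself not well above background. Within the scan dates the changes were -0.97 at D1, -0.10 and 0.38 at D30, and 0.56 and 1.97 at D180. A second Eda2r probe, well above background on 2 arrays, gave -0.32 at D180.

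**Figure D4:**
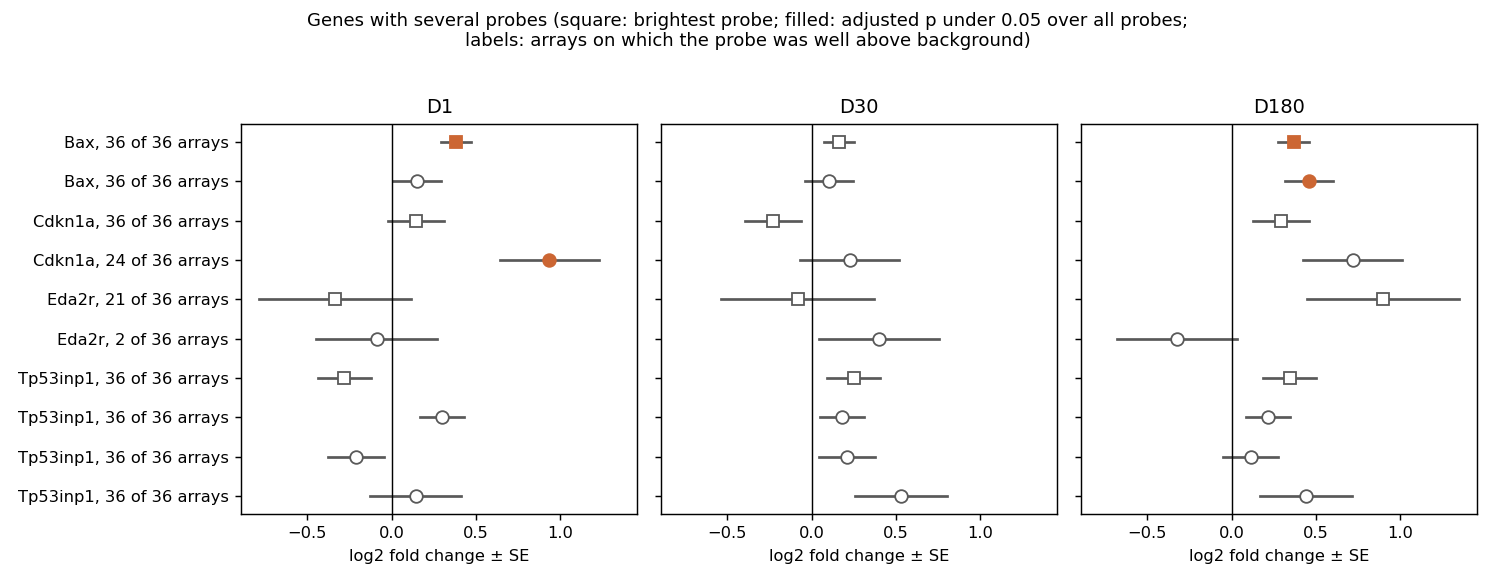
Log2 fold change with its SE (x axis) for every kept probe of the 4 targets with several probes (y axis, each with the number of arrays on which it was well above background), at D1, D30 and D180. The dim Cdkn1a probe is at 0.94 at D1 where the bright probe is at 0.14, and the Tp53inp1 probes lie on both sides of 0 at D1.

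Differences of the silica effect between time points were tested as interaction terms, and none of the 10 passed in any of the 3 contrasts. By unadjusted p under 0.05 there were 3 from D1 to D30, 2 from D30 to D180 and 3 from D1 to D180, beside 16%, 11.7% and 19.1% of all genes. After adjustment 2.18%, 0.246% and 4.55% of all genes passed. Gdf15 came nearest. Its silica effect was higher at D180 than at D1 by 1.85 (95% confidence interval 0.71 to 2.99, adjusted p = 0.0513), and higher than at D30 by 2.01 (0.87 to 3.15, adjusted p = 0.112). The first of these passed without vehicle rat 2 or 4 of D1, vehicle rat 4 or 5 of D180, or DQ-12 rat 3 or 6 of D180, at values between 1.92 and 2.07 and adjusted p between 0.0255 and 0.0498. The second passed without vehicle rat 4 or DQ-12 rat 5 of D30 or DQ-12 rat 3 of D180, at 2.23 to 2.36 (adjusted p between 0.024 and 0.0476). In the scan date block fit they were 1.99 (adjusted p = 0.0867) and 1.09 (adjusted p = 0.385).

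For the other targets the changes between time points were smaller. Mdm2 was higher relative to vehicle at D30 than at D1 by 0.44 (adjusted p = 0.121) and at D180 than at D1 by 0.39 (adjusted p = 0.136), and Tp53inp1 by 0.53 and 0.62 (adjusted p = 0.221 and 0.101). Phlda3 was lower at D30 than at D1 by a difference of -0.78 (adjusted p = 0.0929), which passed without vehicle rat 3 or DQ-12 rat 5 of D30 (-0.92 and -0.95, adjusted p = 0.0241 and 0.011). Cdkn1a was higher at D180 than at D30 by 0.52 (adjusted p = 0.37). Bax differed by -0.02 between D180 and D1, with a 95% confidence interval of -0.27 to 0.24.

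In vehicle rats alone, Gadd45a was higher at D180 than at D1 by 0.32 (adjusted p = 0.027) and Ccng1 by 0.36 (adjusted p = 0.0457), and 10.6% of all genes passed in that comparison. None of the 10 passed between D30 and D1 (1 by unadjusted p under 0.05, as 22.2% of all genes), where 6.53% of all genes did. Each time point had its own scan dates, so the age of the rats and the scan date cannot be told apart, and with either scan date or slide as a random block none of the 10 passed. The Ccng1 call was lost without vehicle rat 1, 2, 4, 5 or 6 of D1 or 1, 2, 3 or 5 of D180 (values of 0.31 to 0.38, adjusted p of 0.0561 to 0.11), and the Gadd45a call without rat 4 or 5 of D1 or 5 of D180 (0.24 to 0.30, adjusted p of 0.056 to 0.1).

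Among 37 other p53 pathway genes tested of 40 listed, 3 were higher and 5 lower at D1, 1 higher and 2 lower at D30, and 6 higher and 3 lower at D180, with list medians of 0.01, 0.04 and 0.04. That is 21.6%, 8.11% and 24.3% of the list against 16.2%, 3.98% and 16.8% of all genes, whose medians were -0.01, -0.02 and -0.03.

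Pmaip1, which encodes the apoptotic protein Noxa, rose at all 3 times, by 0.71, 0.99 and 0.98 (adjusted p = 0.00537, 5.74e-04 and 1.31e-04). When scan date was a block it passed at D30 (0.68, adjusted p = 0.0159) and D180 (0.94, adjusted p = 2.41e-04) and not at D1 (0.65, adjusted p = 0.241). Steap3, a metalloreductase of endosomes, was higher at D1 by 1.18 (adjusted p = 0.0124) with 2 of 6 vehicle rats well above background, and at D180, where no vehicle rat was, at least 2.05-fold higher (adjusted p = 3.95e-04). With the block Steap3 passed at D180 (adjusted p = 0.00409) and not at D1 (0.99, adjusted p = 0.518). Perp, a membrane protein of desmosomes, fell at D1 and D180 by 0.49 and 0.54 on the log2 scale, and with the block it passed at neither time (-0.76 and -0.33, adjusted p = 0.107 and 0.145). Tp53i11 fell at D30 and D180 by 0.65 and 0.53, Ptp4a1 at D1 by 0.45 and Sertad1 at D30 by 0.63. Of these, only the fall of Tp53i11 at D180 passed with the block (-0.69, adjusted p = 0.00766), while Tp53i11 at D30 (-0.39, adjusted p = 0.315), Ptp4a1 (-0.36, adjusted p = 0.343) and Sertad1 (-0.27, adjusted p = 0.41) did not.

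Most of the damage sensing and repair genes that passed at D1 were higher. Of 29 tested of 32 listed, 11 were higher and 2 lower at D1, 3 higher at D30 and 7 higher at D180, with medians of 0.22, 0.02 and 0.06. They made up 44.8%, 10.3% and 24.1% of the list, against the shares of all genes given above. Fanca of the Fanconi anemia pathway was 3.54-fold higher at D1, with 4 of 6 vehicle rats well above background. Fancd2 of the same pathway was also higher (adjusted p = 3.30e-04), with 1 of 6 vehicle and 6 of 6 DQ-12 rats well above background, so that the size of its change is not given. Chek1, the checkpoint kinase, was 3.02-fold higher at D1, with 4 of 6 vehicle rats well above background, and 1.58-fold higher at D180. Brca1 was 1.94-fold higher at D1, 1.62-fold at D30 and 2.37-fold at D180. In the scan date block fit Brca1 passed at D180 (1.15, adjusted p = 0.00129) and not at D30 (0.44, adjusted p = 0.457) or D1 (0.90). Chek1 then passed at neither time (1.30 and 0.50, adjusted p = 0.0859 and 0.183), nor did Fanca (1.19, adjusted p = 0.453) or Fancd2 (adjusted p = 0.342) at D1. The 2 lower genes at D1, Nbn (-0.40) and Xrcc5 (-0.84), were named after their values were seen. With scan date as a block they stood at -0.33 and -0.75, and neither passed.

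Many of these repair genes are also expressed in the S and G2 phases, and the markers of proliferating cells moved with them. All 6 of those markers passed, higher, at D1 and at D180, and 5 of 6 at D30, against 7.58%, 7.82% and 2.74% of all genes. The medians of these markers were 2.12, 1.42 and 0.63. Their summed log2 signal ranged from 10.82 to 11.48 in vehicle and from 12.62 to 13.67 in DQ-12 rats at D1, from 10.88 to 11.49 and 11.44 to 11.96 at D30, and from 10.11 to 10.82 and 11.66 to 12.25 at D180. Their part in the results on the targets and repair genes was not tested. When scan date was a block 2 repair genes passed at D1, where 1.12% of all genes did. Among the 2 was H2afx (1.22, adjusted p = 0.0313), which was named after its value was seen.

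**Figure D5:**
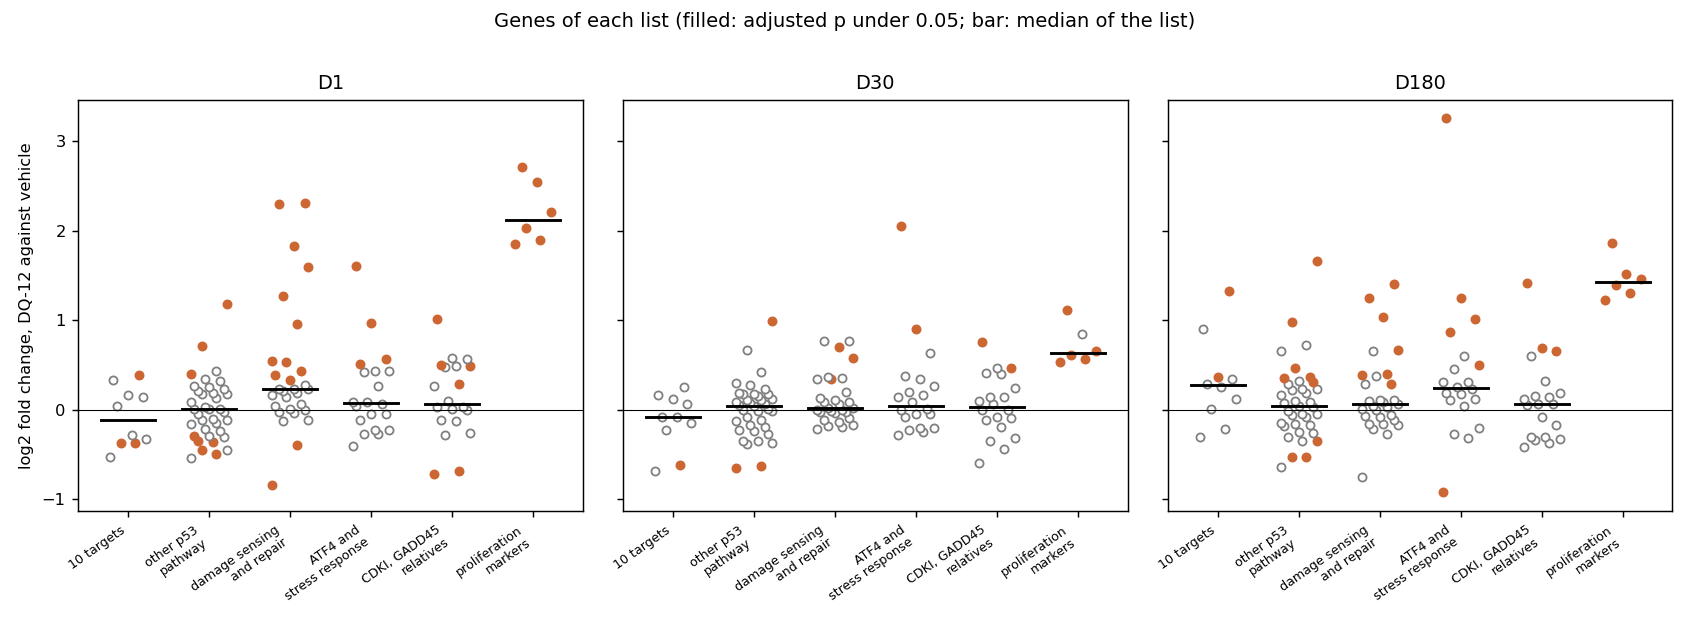
Log2 fold change of DQ-12 against vehicle (y axis) for the genes of each list (x axis) at D1, D30 and D180, with filled points where the adjusted p was under 0.05 and bars at the list medians. The 10 targets stay within -0.69 and 1.32, whereas Slc7a11 of the ATF4 list reaches 3.25 at D180; the highest repair gene at D1 is Fancd2, which was at background in most vehicle rats.

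Among 20 genes of the ATF4 and integrated stress response, 4 were higher at D1, 2 higher at D30, and 5 higher and 1 lower at D180 (20%, 10% and 30% of the list, medians 0.07, 0.05 and 0.24). Of all genes, 16.2%, 3.98% and 16.8% passed at these times. Slc7a11, the cystine transporter that NRF2 also raises, was 3.04-fold, 4.14-fold and 9.54-fold higher at the 3 times. Mthfd2, a mitochondrial folate enzyme, rose by 0.97, 0.90 and 1.25, and Phgdh, the entry enzyme of serine synthesis, by 0.51 at D1 and 1.01 at D180. Shmt2 rose by 0.56 at D1 and 0.50 at D180, and Vldlr fell by 0.92 at D180. When scan date was a block the 4 calls at D1 were lost, as was that of Mthfd2 at D30 (0.55, adjusted p = 0.0844). Slc7a11 then passed at D30 and D180 (1.88 and 3.01, adjusted p = 2.60e-04 and 1.66e-07), and Mthfd2, Phgdh, Shmt2 and Vldlr at D180. Of the 2 targets that ATF4 is known to raise, Gdf15 passed at D180 and Sesn2 at no time.

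Among the relatives of the targets (20 tested of 21 listed), 4 were higher and 2 lower at D1, 2 higher at D30 and 3 higher at D180 (30%, 10% and 15% of the list, medians 0.07, 0.03 and 0.06). Of all genes, 16.2%, 3.98% and 16.8% passed at these times. Bak1, the partner of Bax at the mitochondrial membrane, rose at each time, by 0.48, 0.46 and 0.69, and its groups did not overlap at any of them. Gadd45g rose by 0.50, 0.76 and 0.65. Cdkn2a, which encodes the p16 and Arf proteins of senescent cells, was 2.67-fold higher at D180 (adjusted p = 2.79e-04), and Cdkn2c was 2.01-fold higher at D1. Sesn3 and Cdkn1c fell at D1 by 0.72 and 0.69. In the scan date block fit the 6 calls at D1 were lost, where Gadd45g turned to -0.05 (adjusted p = 0.973) and Bak1 stood at 0.31 (adjusted p = 0.256), while both passed at D30 and D180 and Cdkn2a at D180.

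Markers of inflammatory cells also moved in these lobes. Macrophage and monocyte markers passed, higher, for 3, 5 and 5 of 8 genes at D1, D30 and D180, and neutrophil markers for 1, 2 and 4 of 6. These are 37.5%, 62.5% and 62.5%, and 16.7%, 33.3% and 66.7%, against 16.2%, 3.98% and 16.8% of all genes. The neutrophil share at D1 was thus near that of all genes. Scan date block values are not given for the cell markers. The summed neutrophil signal ranged from 13.00 to 13.96 in vehicle and from 15.51 to 16.04 in DQ-12 rats at D180, and from 13.04 to 14.22 and 13.39 to 14.65 at D1. The summed macrophage signal at D180 ranged from 18.25 to 18.27 and from 18.37 to 18.66, and most of it came from Lyz2, whose signal lies near the top of the scale that quantile normalization makes alike on all arrays. Endothelial and stromal markers passed, lower, for 3 of 5 genes at D180, against 9% of all genes, with sums of 15.48 to 15.66 and 14.80 to 15.28. Of 6 lymphocyte markers 0, 1 and 1 passed (Jchain, an immunoglobulin gene, at both later times). At D180 that is 16.7%, near the 16.8% of all genes. The lymphocyte sum ranged from 13.07 to 14.05 and from 14.23 to 16.07 at D180. Each marker of the 6 lists was well above background on at least 1 array, and the part of these cells in the Bax and Gdf15 values was not tested.

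Across the 36 lungs, which share time points, exposure and scan dates, the genes whose log2 signal ran most like a target are given as a description. Gdf15 correlated most with Slc12a7 (Pearson r = 0.835), Galnt6 (0.817) and Lamtor3 (0.812), and Phlda3 with Mprip (0.926), Axin1 (0.911) and Maea (0.903). Bax correlated most with LOC102552334 (0.87), Ptprn (0.866) and Rexo2 (0.864), Mdm2 with Tvp23b (0.871), Vps13d (0.857) and Isy1 (0.854), and Gadd45a with Os9 (0.824), Mtap (0.816) and Pgrmc2 (0.812). Ccng1 ran most like Dcun1d5 (0.854), Rbm47 (0.854) and Ube2j1 (0.846), Tp53inp1 like Runx1 (0.813), Zc3h7a (0.803) and Chfr (0.799), and Sesn2 like Mindy1 (0.823), Upf1 (0.763) and Cdc5l (0.752). The nearest genes to Cdkn1a were farther away, at 0.716 for Nfil3, 0.654 for Mocos and 0.614 for Rasgef1b, and those to the dim Eda2r were Adad2 (0.846), Gdpd4 (0.788) and Olr728 (0.747). None of the 10 targets was among the 3 nearest genes of another.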

How the data were processed

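Per the labels and the study's methods, the authors hybridized Cy3-labeled accessory lobe RNA to Agilent 8x60K rat arrays and read them with Feature Extraction 12.0.1.1. The deposited scanner files hold background-subtracted, not yet normalized intensity per spot (58717 non-control spots per array, none saturated, 232 to 596 flagged as outliers). The deposited log2 values of the series match the same intensity scaled to each array's 75th percentile and centered on each probe's median over arrays (r = 1.00, median absolute difference 0.002). The authors also corrected for a batch that the sources used here do not name. Precision is limited by the number of arrays, 6 per group.

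From the scanner files, log2 processed signal was taken without outlier spots, spots of a probe were averaged, a probe was kept if on 6 or more arrays it exceeded the 95th percentile of that array's 308 negative controls (42200 of 45598 probes), values were quantile normalized, and the brightest probe stood for each gene name. limma 3.58.1 (R 4.3.3) fitted 6 group means over 36 arrays, with Benjamini-Hochberg adjustment over all genes in each contrast; the code was tested on simulated data with known changes. Confidence intervals are at 95%. Alternatives were other scalings, background correction, filters, probe rules, blocks, moderation, weights and leaving out each array. Scan date and slide (11 and 19) came from the file headers.

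The 10 genes and the other gene lists were chosen with earlier results of these data known. Named were all 10 targets, of each list at most the 4 passing genes of largest change per comparison, and the 3 genes best correlated with each target, unless stated otherwise; some genes that the rule names are not reported here. RefSeq tables (GRCr8) gave promoters and the synonym Trp53inp1. No columns of per-sample values were left unmapped.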

Additional observations from a re-analysis of the deposited data

Results flagged for a closer look

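Of the 60 groups of 6 rats formed by the 10 targets, 6 held 1 rat whose gap to the nearest other rat exceeded the 95% critical value of Dixon's test (0.625 of the group's range), and chance flags about 1 in 20 groups. Among DQ-12 rats of D1, rat 2 had the highest Bax (12.76, the other rats 12.34 to 12.46) and the highest Phlda3 (9.29, the others 8.56 to 8.83), and rat 1 had the lowest Sesn2 (6.26, the others 6.62 to 6.74). DQ-12 rat 5 of D30 had a Gdf15 signal of 8.98 where the others ran from 6.49 to 7.25, and its array was the only DQ-12 array of D30 on the first scan date. Vehicle rat 3 of D30 had an Mdm2 signal of 10.57 (the others 10.17 to 10.29), and vehicle rat 5 of D180 a Gadd45a signal of 11.07 (the others 10.46 to 10.63). Without DQ-12 rat 2 of D1, Bax still passed at D1.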

How the results depend on the processing

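In the counts that follow, the number passing in the reported fit stands before "to". With scan date as a block 1.12%, 1.9% and 14.7% of all genes passed at D1, D30 and D180, against 16.2%, 3.98% and 16.8% in the reported fit. For the other blocks, and for the weights, moderation, filters, probe rules, single time points and left-out arrays below, the share of all genes is not given. Those counts therefore do not show whether a shift is particular to a list. With scan date as a block the targets went from 3 to 0 at D1 and from 1 to 0 at D30, the other p53 genes from 8 to 0 and 3 to 1, the repair genes from 13 to 2 and 3 to 1 (and 7 to 4 at D180), the ATF4 genes from 4 to 0 and 2 to 1, and the relatives from 6 to 0 at D1 and 3 to 5 at D180. With slide as a block the targets went to 0 at D1, D30 and D180, the other p53 genes to 1 at D1 and 0 at D180, the repair genes to 2, 0 and 0, the ATF4 genes to 0, 1 and 1, and the relatives to 0 at D1 and 1 at D180. With scan date as a random block (correlation 0.251) the targets went to 1 at D1 and 0 at D30, the other p53 genes to 3 and 1, the repair genes to 1 at D30 and the relatives to 5 at D180. With slide as a random block (correlation 0.387) the targets and the other p53 genes went to 0 and 1 at D30. With either random block the vehicle change from D1 to D180 went from 2 targets to 0, and the silica effect from D1 to D180 from 0 to 1 (Gdf15).

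That last count was also 1 with normexp background correction, the filter on probes well above background, trended and robust moderation, array weights and the replicate block. Array weights gave 2 targets at D30, 2 for D1 to D30, 1 for D30 to D180 and 1 for vehicle D1 to D180, and 9 other p53, 8 repair and 8 related genes at D30, with 4 repair genes and 5 relatives at D180. Fitting each time point alone gave 0 targets at D30 and 1 at D180, 1 and 5 other p53 genes, and 0 repair and 1 ATF4 gene at D30. The median over probes gave 5 other p53 genes at D1, 5 relatives at D180 and 1 target for vehicle D1 to D30, every probe tested on its own gave 0 targets at D30 and 1 for vehicle D1 to D30, and the filter on probes well above background 5 relatives at D180.

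Rats of the same number shared only that number (18 pairs, correlation of deviations -0.132 to 0.219, 6 over 0.1), and with the replicate number as a block the targets went from 1 to 0 at D30 and from 0 to 1 for D1 to D180, with their other counts as before.

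Leaving out each array in turn, the targets passing ranged from 2 to 4 at D1, 0 to 1 at D30 and 1 to 2 at D180, from 0 to 1 in each difference between time points, and from 0 to 0 and 0 to 2 in vehicle rats at D30 and D180 against D1. The ranges at the 3 times were 8 to 10, 1 to 6 and 8 to 10 for the other p53 genes, 11 to 13, 1 to 4 and 3 to 7 for the repair genes, 3 to 4, 2 to 3 and 5 to 7 for the ATF4 genes, and 4 to 6, 2 to 3 and 3 to 4 for the relatives.

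None of the target values that passed changed sign under the alternatives run. Of values that did not pass, Sesn2 at D1 turned to -0.0581 with 75th percentile scaling, -0.0578 in the deposited values, -0.0352 with slide as a block and -0.0218 with array weights. Tp53inp1 at D1 turned to 0.10 with the median over probes, as did Eda2r at D30 (0.16), which also read 0.21 and 0.16 with scan date and slide as blocks and 0.0890 and 0.0552 with them as random blocks. With scan date as a block Ccng1 read -0.0588 at D1, and at D30 Mdm2 read -0.0391, Ccng1 -0.0273, Gdf15 0.28 and Sesn2 0.44. With slide as a block these 4 read -0.0646, -0.0382, 0.16 and 0.33 at D30, and at D180 Mdm2 read -0.0554 and Sesn2 -0.75. As random blocks scan date gave Sesn2 at D30 0.23, and slide gave 0.16, with Mdm2 at D30 at -0.0133 and Sesn2 at D180 at -0.0335. Array weights gave Mdm2 at D180 -0.0311. Over left-out arrays Eda2r at D30 ran from -0.31 to 0.15, Mdm2 from -0.000335 to 0.12 at D30 and -0.0432 to 0.0366 at D180, and Sesn2 from -0.0645 to 0.12, -0.26 to 0.0549 and -0.10 to 0.25 at the 3 times.

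The cause of these shifts was not tested. At D1 the 6 DQ-12 arrays shared a scan date with 1 vehicle array, so the scan date block compares them with that array alone. Eda2r and the second Cdkn1a probe lay near background, where fold changes are imprecise, and 6 rats per group leave differences smaller than the printed intervals unresolved. Whole lobes do not show which cells hold a transcript.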
